A study of Mus musculus with 6 samples.

Results

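The genes described here encode the helix-loop-helix partners and inhibitors of the myogenic factors. They were chosen by name, and all 10 of 10 names were found among the 54532 rows with a gene name: the Id genes Id1, Id2, Id3 and Id4, the E-protein genes Tcf3, Tcf4 and Tcf12, and the repressor genes Msc, Twist1 and Twist2. RNA was sequenced from C2C12 cells, a mouse skeletal muscle myoblast line, as 3 wild-type libraries and 3 Gmppb-KO libraries, to learn how Gmppb bears on muscle development. Gmppb encodes the catalytic subunit that makes GDP-mannose, the sugar donor for protein glycosylation. Knockout cells had received CRISPR/Cas9 plasmids with guides to exons 1 and 5 of Gmppb, had been selected in puromycin and had been expanded from single cells. Whether the 3 knockout libraries came from 1 clone or several is not given in the labels, and transfection and puromycin are described for the knockout cells only, so clonal history and genotype cannot be told apart. RNA of both groups was taken after 2 days of culture. The labels do not give the replicates as separate cultures. The p-values therefore measure only the spread between these libraries, which may be technical.

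Myogenic factors such as Myod1 are basic helix-loop-helix proteins that bind the DNA sequence CANNTG, the E-box, as dimers with an E-protein. Id proteins have the helix-loop-helix but no basic region, so an Id protein bound to an E-protein keeps it off DNA. Musculin, the product of Msc, and the Twist proteins have a basic region, pair with E-proteins too, and repress or compete with Myod1 in myoblasts. In proliferating myoblasts Id levels are typically high, and they fall when the cells differentiate.

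None of the 8 genes that could be tested passed the test between the genotypes. Of all tested genes 5.59% passed, so 0 of 8 does not set these genes apart, nor does it show them unchanged. Myod1, the factor they pair with or restrain, fell 344-fold in the knockout libraries. Id3, Tcf3, Id1 and Msc were well expressed in both groups. Mean levels of Id1 and Twist2 were lower and that of Id3 was higher in Gmppb-KO libraries, each by less than 2-fold and not past the adjusted threshold. Per length, most E-protein messenger RNA was Tcf3 in both groups, a share that depends on the gene lengths used.

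Promoter sequence from RefSeq (GRCm38.p6, 250 bases before to 50 after a start) was at hand for 7 of the 10 genes, and not for Id1, Tcf4 and Msc. It was searched for CANNTG, the letters these dimers bind, and for GGCGCC, a sequence bound by BMP Smads in Id promoters; both motifs read the same on either strand. CANNTG was present in 72.3% and GGCGCC in 11.9% of 32851 promoters. Of the 9 windows of the 7 genes, 5 held CANNTG and 2 held GGCGCC. Matches in the Id2, Id4, Tcf3 and most upstream Tcf12 windows are shown in capitals, 5′ to 3′ on the gene's strand, because these dimers and BMP Smads read such letters; a match is a description of letters and not a binding site.
Id2 E-box, chr12:25096271-25096300, minus strand: aatttgccacccCAGCTGggctctcgcccg
Id2 GGCGCC, chr12:25096306-25096335, minus strand: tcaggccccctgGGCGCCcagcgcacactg
Id4 GGCGCC, chr13:48260956-48260985, plus strand: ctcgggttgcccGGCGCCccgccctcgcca
Tcf3 E-box, chr10:80433672-80433701, minus strand: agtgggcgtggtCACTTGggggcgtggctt
Tcf12 E-box, chr9:72112042-72112069, minus strand: agatgctgccCAGCTGcgtccccgtcgc
The windows of Id3, Twist1 and Twist2 held no match to these letters.

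Values listed by library are in the order of replicates 1, 2 and 3. Levels of a gene between libraries are given as CPM (the count as a share of the normalized library size, scaled to the same total), and levels between genes as the authors' FPKM, which divides by gene length. The gene test was edgeR's quasi-likelihood test, 2-sided, with Benjamini-Hochberg adjustment over 12786 tested genes and a threshold of 0.05. Of the 10 genes, 8 had enough counts to be tested; Id4 and Twist1 did not. EdgeR called 0 of the 8, against 5.59% of all tested genes. At an unadjusted p under 0.05 there were 2 of 8, Id1 and Twist2, against 20.1% of all tested genes, and the 3 and 3 libraries did not overlap in 2 of 8, Id1 and Tcf3, against 26.1%. DESeq2, limma voom and each of the other alternatives tried also called 0. The median log2 fold change of the 8 was 0.034 and the median of its absolute size 0.31, beside 0.11 and 0.42 over all tested genes. In counts simulated for this comparison, 72% of genes raised 4-fold and 63.8% of genes lowered 4-fold were recovered. Of those changed 2-fold, only 10% of raised and 6.25% of lowered genes were recovered. These rates are not those of the 8 genes, whose median SE was 0.232 beside 0.32 over all tested genes. The 95% intervals of Id2, Id3, Tcf3 and Msc leave out a 2-fold change in either direction. Those of Id1, Tcf4, Tcf12 and Twist2 do not. Changes inside these intervals were not excluded.

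**Figure D1:**
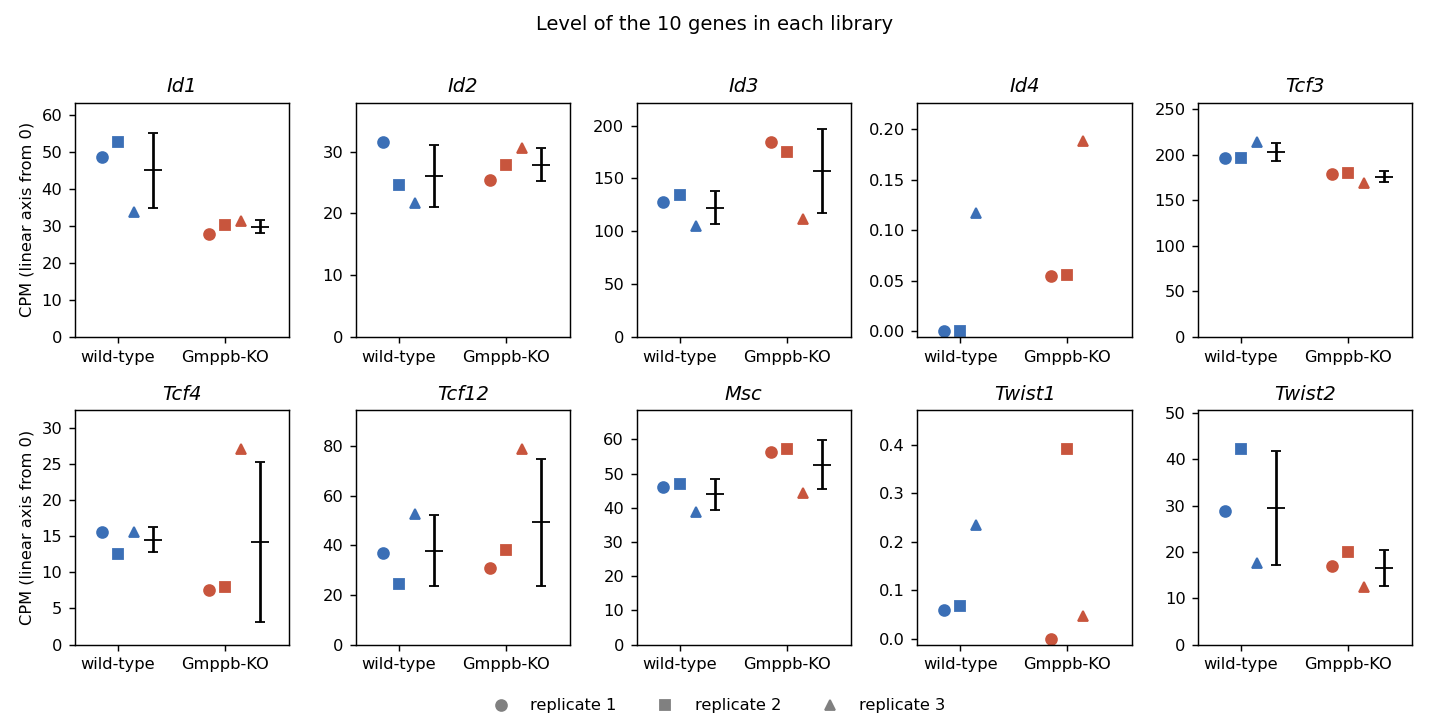
CPM of each of the 10 genes in the 3 wild-type (blue) and 3 Gmppb-KO (red) libraries on linear axes; the marker shape is the replicate number and the bar is the mean ± SD over n = 3, drawn for the 8 tested genes. The groups do not overlap for Id1 and Tcf3, Tcf4 and Tcf12 have a high Gmppb-KO replicate 3, and Id4 and Twist1 stay below 0.4 CPM.

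The libraries held 16011021 to 18566759 counts in named genes. Gmppb itself had 18.1, 20.9 and 23.9 CPM across wild-type libraries and 20.6, 16.02 and 13.01 CPM across Gmppb-KO libraries, and it was not called (edgeR adjusted p = 0.459); its count covers the whole gene and does not isolate the segment between the guides, so this is a weak check of the labels. Libraries differed in how they represent long genes. The median log2 deviation of the 1148 tested genes with at least 10000 exon bases, minus that of the 956 genes under 1000 bases, was -0.43, -1.01 and 0.30 across wild-type libraries and -0.21, -0.24 and 1.55 across Gmppb-KO libraries. Gmppb-KO replicate 3 therefore stood apart, and this length measure is given below beside the genes it touches. Marker counts below stand beside 2.32% of all tested genes called higher and 3.27% called lower. Of 8 myoblast markers 3 fell, Myod1, Pax7 and Chrnd, while Des, the muscle intermediate filament gene, had means of 4250 and 3169 CPM in wild-type and Gmppb-KO libraries and was not called (edgeR adjusted p = 0.497). Summed levels of the 9 fibroblast markers were 228 to 308 CPM in wild-type libraries against 1260 to 1870 CPM in Gmppb-KO libraries, with 3 of 6 tested members higher and 2 lower, and with Lum and Tcf21 at 0 counts throughout. Neural and Schwann cell markers, 7 in all, summed to 670 to 744 and 226 to 399 CPM with 3 of 4 tested members lower and Sox10 at 0, and the 6 adipocyte markers summed to 37.8 to 49.2 and 50.4 to 89.5 CPM with 2 of 4 tested members higher and Adipoq and Plin1 at 0. Summed levels of osteoblast and chondrocyte markers were 43.7 to 61.1 and 28.9 to 51.8 CPM, endothelial and smooth muscle markers 2.81 to 6.14 and 1.06 to 2.39 CPM, and leukocyte markers 2.61 to 5.47 and 1.98 to 4.14 CPM, with edgeR calling 0 members of these 3 lists and 0, 1 and 0 at an unadjusted p under 0.05. Ibsp, Acan, Col2a1, Pecam1, Cdh5, Cd3e, Adgre1 and Itgam were at 0 counts. The part of these differences in the values below was not tested, and in bulk RNA fewer cells of a type and less RNA per cell cannot be told apart.

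Among the Id genes, mean levels in Gmppb-KO libraries were lower for Id1 and higher for Id3, neither past the threshold, and Id2 lay in the same range in both groups. Id1 (ENSMUSG00000042745, mm10 chromosome 2, 152736251 to 152737410, plus strand) encodes the inhibitor first shown to bind E-proteins and block Myod1. Its level was 48.5, 52.6 and 33.6 CPM across wild-type libraries and 27.7, 30.2 and 31.3 CPM across Gmppb-KO libraries. All 3 Gmppb-KO values lay below all 3 wild-type values, but wild-type replicate 3 was close to the highest of them. Mean Id1 was 44.9 ± 10.0 CPM in wild-type libraries against 29.8 ± 1.83 CPM in Gmppb-KO libraries (SD, n = 3), and the edgeR estimate of the log2 fold change was -0.59 ± 0.23 (SE; 95% interval -1.11 to -0.073) with an edgeR adjusted p of 0.201. With the length trend of each library removed, the log2 fold change of Id1, the shortest of the 10 genes at 1160 exon bases, was -0.27 ± 0.23 (edgeR adjusted p = 0.515).

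Id3 (ENSMUSG00000007872, chromosome 4, 136143497 to 136145755, plus strand) encodes an Id protein that binds E-proteins in myoblasts and lymphocytes. It had 128, 135 and 105 CPM across wild-type libraries and 185, 175 and 112 CPM across Gmppb-KO libraries. Gmppb-KO replicates 1 and 2 lay above every wild-type library, whereas Gmppb-KO replicate 3 lay inside the wild-type range. Id3 had a log2 fold change of 0.36 ± 0.24 (95% interval -0.18 to 0.91, edgeR adjusted p = 0.399). It was 0.51 ± 0.18 without Gmppb-KO replicate 3 (edgeR adjusted p = 0.180) and 0.51 ± 0.17 with the length trend removed (edgeR adjusted p = 0.122). Without Gmppb-KO replicate 1 it was 0.15 ± 0.29 (edgeR adjusted p = 0.756), and over 17 alternatives it ran from 0.15 to 0.52.

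Id2 (ENSMUSG00000020644, chromosome 12, 25093799 to 25097140, minus strand), whose protein also binds the retinoblastoma protein, had 31.6, 24.7 and 21.8 CPM across wild-type libraries and 25.4, 27.8 and 30.6 CPM across Gmppb-KO libraries. These ranges overlap almost fully. The log2 fold change was 0.10 ± 0.23 (edgeR adjusted p = 0.799), with a 95% interval of 0.750-fold to 1.54-fold. Id4 (ENSMUSG00000021379, chromosome 13, 48261228 to 48266026, plus strand), whose protein is also an Id inhibitor, was barely detected, with 0, 0 and 2 counts across wild-type libraries and 1, 1 and 4 counts across Gmppb-KO libraries. The ratio of pooled Id4 counts, Gmppb-KO over wild-type and per library size, was 2.55 with an exact 95% binomial interval from 0.455 to 25.8, which covers counting error only.

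Within the summed Id level, the make-up differed between the groups. Id3 held 56.5%, 57.5% and 60.6% of the summed Id FPKM across wild-type libraries and 75%, 72.3% and 61.2% across Gmppb-KO libraries. Id1 held 33.2%, 34.7% and 30.1% in wild-type libraries and 17.4%, 19.3% and 26.5% across Gmppb-KO libraries in the same order. The groups did not overlap for either share, with wild-type replicate 3 and Gmppb-KO replicate 3 the closest pair. Because both genes are read from the same library, the FPKM ratio of Id3 to Id1 does not depend on how libraries are scaled; it was 1.70, 1.65 and 2.02 across wild-type libraries and 4.31, 3.75 and 2.31 across Gmppb-KO libraries. These shares and ratios are descriptions with no test. The summed Id FPKM, by contrast, covered the same range, 127.9, 135.9 and 95.8 in wild-type libraries and 136.6, 131.2 and 97.2 across Gmppb-KO libraries, with replicate 3 the lowest in both groups.

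**Figure D2:**
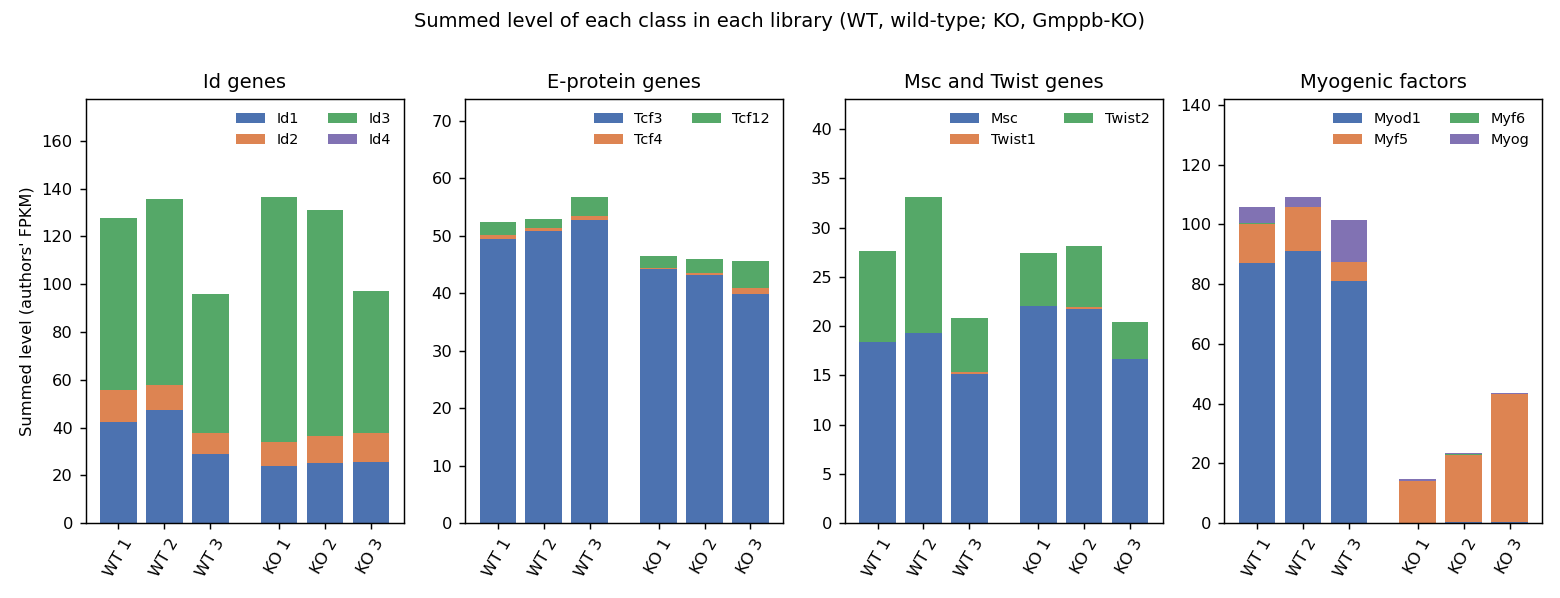
Summed level (authors' FPKM, bars from 0) of the Id genes, the E-protein genes, Msc and Twist genes, and the 4 myogenic factor genes in each of the 3 wild-type (WT) and 3 Gmppb-KO (KO) libraries; colours split each bar by gene. The Id bars reach similar heights in both groups, and the Id3 part is largest in Gmppb-KO replicates 1 and 2. The E-protein bars are mostly Tcf3, and the Myod1 part of the myogenic factor bars is barely visible in the Gmppb-KO libraries.

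Tcf3 (ENSMUSG00000020167, chromosome 10, 80409514 to 80433647, minus strand), which encodes the E12 and E47 proteins, the main dimer partners of Myod1, was the leading E-protein gene. It had 197, 197 and 214 CPM across wild-type libraries and 179, 180 and 169 CPM across Gmppb-KO libraries. The groups did not overlap, yet the difference was small, with means of 202.8 ± 10.0 and 176.2 ± 6.09 CPM. The log2 fold change was -0.20 ± 0.17 (edgeR adjusted p = 0.497), and its 95% interval ran from 0.663-fold to 1.14-fold. Tcf3 made up 93.1% to 96.0% of the summed E-protein FPKM in wild-type libraries and 87.4% to 95.2% across Gmppb-KO libraries, the lowest share being that of Gmppb-KO replicate 3. These shares rest on merged exon lengths of 4039 bases for Tcf3, 15529 for Tcf12 and 27382 for Tcf4. In raw counts Tcf3, Tcf12 and Tcf4 had 3316, 621 and 262 in wild-type replicate 1. In Gmppb-KO replicate 3 they had 3587, 1670 and 573. The counts do not separate E12 from E47, which are splice forms of the same gene; the annotation holds 14 Tcf3 transcripts.

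Tcf12 and Tcf4, the other E-protein genes, are the longest of the 10, and both were highest in Gmppb-KO replicate 3, the library with the highest length measure. Tcf12 (ENSMUSG00000032228, chromosome 9, 71842688 to 72111871, minus strand), which encodes HEB, an E-protein that acts with Myod1 in differentiating myoblasts, has 15529 merged exon bases. Its level was 36.9, 24.3 and 52.6 CPM across wild-type libraries and 30.8, 38.3 and 78.7 CPM across Gmppb-KO libraries. Replicate 3 was the highest library in each group, and the groups overlapped. The log2 fold change was 0.38 ± 0.41 (edgeR adjusted p = 0.588); it was -0.18 without Gmppb-KO replicate 3 (edgeR adjusted p = 0.820) and -0.093 ± 0.20 with the length trend removed (edgeR adjusted p = 0.795).

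Tcf4 (ENSMUSG00000053477, chromosome 18, 69343356 to 69689079, plus strand), which encodes the E-protein E2-2, has 27382 merged exon bases and 62 annotated transcripts. It had 15.6, 12.5 and 15.6 CPM across wild-type libraries and 7.51, 8.01 and 27.0 CPM across Gmppb-KO libraries. Gmppb-KO replicates 1 and 2 lay below every wild-type library and Gmppb-KO replicate 3 lay above them all. The log2 fold change of Tcf4 was -0.034 ± 0.49 (95% interval -1.16 to 1.10, edgeR adjusted p = 0.973), and 0.20 under library size scaling. It was -0.95 ± 0.23 without Gmppb-KO replicate 3 (edgeR adjusted p = 0.0595) and -0.81 ± 0.22 with the length trend removed (edgeR adjusted p = 0.0555), and neither passed the threshold.

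**Figure D3:**
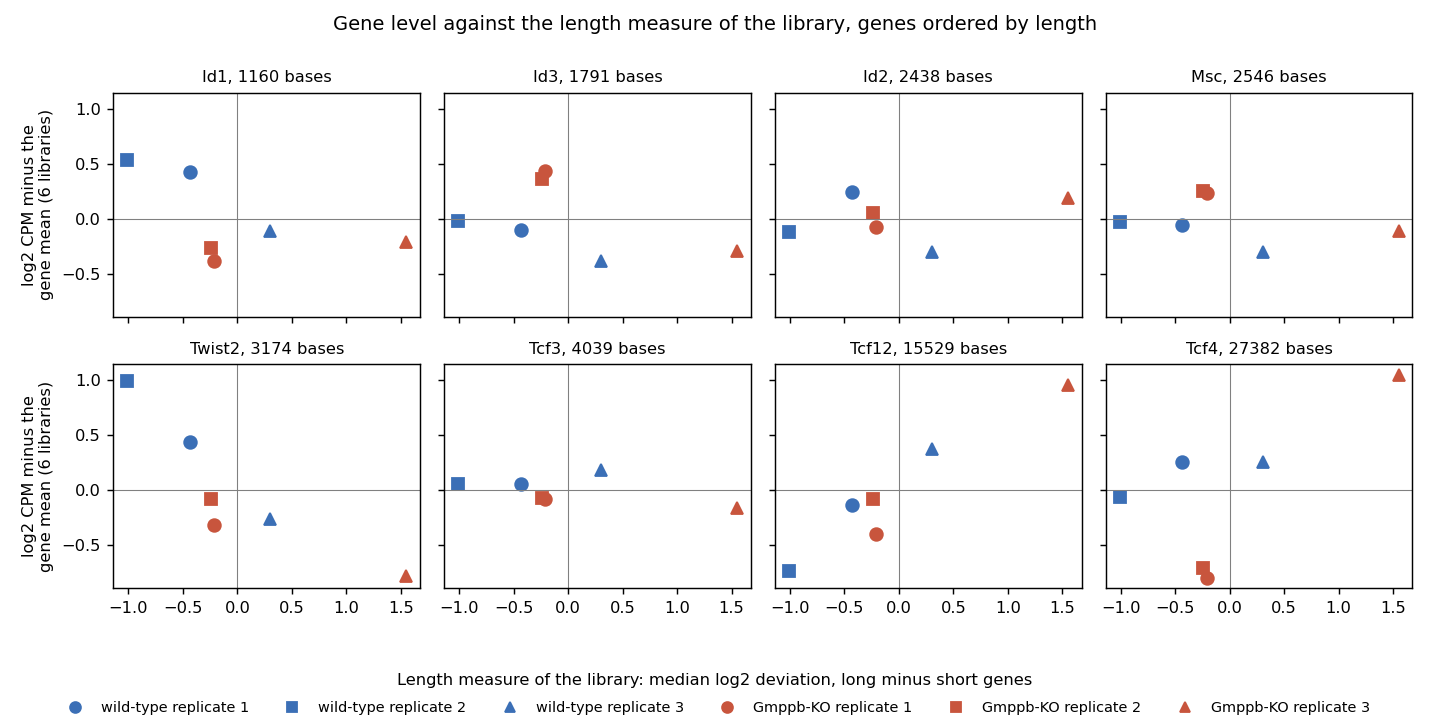
For each of the 8 tested genes, ordered by merged exon length, the log2 CPM of a library minus the gene's mean over the 6 libraries (vertical) against the length measure of that library (horizontal, log2); blue is wild-type, red is Gmppb-KO and the shape is the replicate number. Gmppb-KO replicate 3, at 1.55 on the horizontal axis, is the highest library for Tcf12 and Tcf4 and the lowest for Twist2.

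Msc (ENSMUSG00000025930, chromosome 1, 14753346 to 14755992, minus strand), the gene of musculin or MyoR, a repressor found in undifferentiated myoblasts, was not called. It had 46.1, 47.1 and 38.8 CPM across wild-type libraries and 56.4, 57.1 and 44.4 CPM across Gmppb-KO libraries. Gmppb-KO replicate 3 lay within the wild-type range and the other two lay above it. Msc had a log2 fold change of 0.26 ± 0.20 (edgeR adjusted p = 0.460), with a 95% interval of 0.874-fold to 1.64-fold. The antisense gene Gm9947, with 9 to 46 counts per library, shares 539 exon bases with Msc, which had 663 to 1037 counts; the strand setting of the counting is not given in the sources used here.

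Twist2 (ENSMUSG00000007805, chromosome 1, 91801461 to 91848028, plus strand), also called Dermo1 and known in mouse as an inhibitor of Myod1, had the most negative change of the tested genes. Its level was 28.8, 42.2 and 17.7 CPM across wild-type libraries and 17.1, 20.1 and 12.4 CPM across Gmppb-KO libraries. Wild-type replicate 3 fell between Gmppb-KO replicates 1 and 2, so the groups overlapped, and the wild-type libraries themselves spanned more than the difference of the means, 29.6 ± 12.3 and 16.5 ± 3.86 CPM. Twist2 had a log2 fold change of -0.84 ± 0.35 (95% interval -1.64 to -0.042, edgeR adjusted p = 0.228) and moved little with the length trend removed (-0.87 ± 0.32, edgeR adjusted p = 0.149). The antisense gene Gm29100 shares 1477 exon bases with Twist2 and had 2 to 26 counts per library, against 263 to 625 for Twist2.

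Twist1 (ENSMUSG00000035799, chromosome 12, 33957671 to 33959829, plus strand), a mesoderm factor that also inhibits Myod1, was near the detection limit with 1, 1 and 4 counts across wild-type libraries and 0, 7 and 1 counts across Gmppb-KO libraries. The same ratio for Twist1 was 1.13 with an exact 95% binomial interval from 0.344 to 3.96. Within the summed FPKM of Msc, Twist1 and Twist2, Msc held 66.5%, 58.1% and 72.7% across wild-type libraries and 80.5%, 77.4% and 81.6% across Gmppb-KO libraries, a description in which the groups did not overlap. Twist2 held nearly all of the remainder, 26.6% to 41.7% in wild-type libraries and 18.3% to 21.8% across Gmppb-KO libraries.

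**Figure D4:**
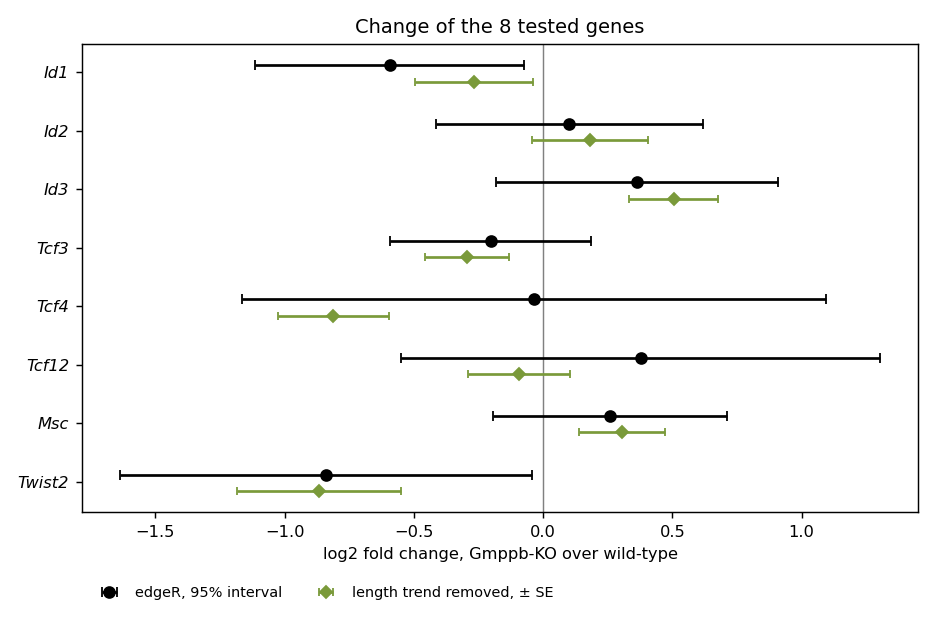
Log2 fold change of Gmppb-KO over wild-type for the 8 tested genes; black circles are the edgeR estimates with their 95% intervals and green diamonds the estimates with each library's length trend removed, with ± 1 SE. Only the intervals of Id1 and Twist2 leave out 0, neither passes adjustment, and the largest move between the estimates is that of Tcf4, from -0.034 to -0.81.

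Per length, the order of the genes in wild-type libraries was Id3 (69.5 ± 10.3 FPKM), Tcf3 (51.0 ± 1.69), Id1 (39.5 ± 9.55), Msc (17.6 ± 2.15), Id2 (10.9 ± 2.15), Twist2 (9.52 ± 4.15), Tcf12 (2.47 ± 0.873) and Tcf4 (0.539 ± 0.0560), each a mean ± SD with n = 3. Twist1 and Id4 had at most 0.143 and 0.0303 FPKM in a wild-type library. Of neighbours in this order, the wild-type ranges of Id2 and Twist2 overlapped, and the lowest Tcf3 value, 49.4 FPKM, lay just above the highest Id1 value, 47.2 FPKM. In Gmppb-KO libraries the order of the means was the same, with Id3 at 85.6 ± 22.9, Tcf3 at 42.4 ± 2.24, Id1 at 24.9 ± 1.02 and Msc at 20.1 ± 3.04 FPKM. The Gmppb-KO ranges of Twist2 and Tcf12 overlapped, and in Gmppb-KO replicate 3 Tcf12, at 4.83 FPKM, lay above Twist2, at 3.72 FPKM. The length behind these FPKM values merges the exons of all annotated transcripts, 62 for Tcf4 and 21 for Tcf12, so the order of genes with many transcripts depends on that choice.

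The ratio of summed Id FPKM to summed E-protein FPKM was 2.44, 2.57 and 1.69 across wild-type libraries and 2.94, 2.86 and 2.13 across Gmppb-KO libraries. The groups overlapped, and replicate 3 was the lowest in each. The amount of myogenic factor messenger RNA beside these partners did not overlap between the groups. The summed FPKM of Myod1, Myf5, Myf6 and Myog was 106.0, 109.2 and 101.4 in wild-type and 14.6, 23.6 and 43.7 across Gmppb-KO libraries. For each FPKM of myogenic factor there was therefore 1.21, 1.24 and 0.945 FPKM of Id across wild-type libraries and 9.33, 5.56 and 2.22 across Gmppb-KO libraries. Summed E-protein was 0.495, 0.484 and 0.560 per myogenic factor FPKM in wild-type libraries and 3.17, 1.95 and 1.04 across Gmppb-KO libraries. These ratios of messenger RNA levels depend on the gene lengths behind FPKM, have no test and say nothing of protein.

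The remaining myogenic factor signal of the knockout libraries was Myf5. Myod1, 80.1% to 83.5% of the summed myogenic factor FPKM in wild-type, held 0.552% to 1.24% in Gmppb-KO libraries, and Myf5 went from 6.06% to 13.5% to 95.1% to 98%. Myod1 fell from 158 ± 5.76 to 0.453 ± 0.118 CPM (log2 fold change -8.43 ± 0.28, edgeR adjusted p = 9.82e-06) and Myog, the differentiation factor, from 11.3 ± 8.46 to 0.785 ± 0.0308 CPM (log2 fold change -3.84 ± 0.59, edgeR adjusted p = 0.00732). Myf5, which shares the E-protein partners of Myod1, had 26.7, 29.4 and 12.9 CPM across wild-type libraries and 29.2, 48.7 and 93.7 CPM across Gmppb-KO libraries. The lowest Gmppb-KO value was below the highest wild-type value, and Myf5 was not called (log2 fold change 1.32 ± 0.46, edgeR adjusted p = 0.168), though it was with no filter on low counts (edgeR adjusted p = 0.00953). Myf6 had 0.416, 0 and 0.176 CPM in wild-type libraries and 0, 0.168 and 0.189 CPM across Gmppb-KO libraries and was not tested.

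Most of the muscle genes listed for E-boxes bound by Myod1 and E-protein dimers fell. Of 15 tested genes, 10 fell and 0 rose, against 3.27% of all tested genes called lower. The acetylcholine receptor subunit gene Chrnd fell from 111.6 ± 3.54 to 10.0 ± 0.816 CPM (11.1-fold, edgeR adjusted p = 0.000100), the fusion gene Mymk from 22.2 ± 1.48 to 1.09 ± 0.195 CPM (20.2-fold), the fast troponin I gene Tnni2 from 9.84 ± 1.6 to 0.191 ± 0.0800 CPM (49.6-fold) and the myosin light chain gene Mylpf from 48.8 ± 8.89 to 2.82 ± 0.781 CPM (17.3-fold). Muscle creatine kinase, Ckm, was at least 23.2-fold lower, with 0 counts in the knockout and a floor of 3 counts over the group; it is named after its values were seen. This list was made with the fall of Myod1 known, so its count is the setting of the 10 genes and not independent evidence.

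Id genes are direct targets of BMP signalling, in which ligands bind receptor kinases that phosphorylate Smad1, Smad5 and Smad9. The ligand gene Gdf6 had 0 counts in the wild-type libraries and 8.16, 6.89 and 13.4 CPM across Gmppb-KO libraries, at least 158-fold higher (edgeR adjusted p = 0.00148). Of 9 BMP ligand genes 3 were tested, and Gdf6 was the 1 called, against 2.32% of all tested genes called higher. Gdf6 had enough counts to be tested only through the Gmppb-KO libraries, so this count is no evidence of an excess. Of 9 tested receptor and co-receptor genes, 2 fell and 0 rose, against 3.27% of all tested genes called lower: the co-receptor genes Hfe2, hemojuvelin, from 4.6 ± 0.913 to 1.02 ± 0.404 CPM (edgeR adjusted p = 0.0246) and Rgma from 17.8 ± 2.44 to 8.34 ± 0.556 CPM (edgeR adjusted p = 0.0408). The Hfe2 call was lost without wild-type replicate 1 or 3 or Gmppb-KO replicate 2, and the Rgma call under library size scaling and when any library other than Gmppb-KO replicate 3 was left out. EdgeR called 0 of 4 tested BMP Smad genes (1 had an unadjusted p under 0.05), and DESeq2 called 1. Of 12 tested inhibitor genes 2 rose and 0 fell, against 2.32% of all tested genes called higher. At an unadjusted p under 0.05 there were 8 of 12, and in 10 of 12 the groups did not overlap, beside 20.1% and 26.1% of all tested genes. Both counts mix directions. Grem1, in both, had a lower mean in Gmppb-KO libraries, 14.7 ± 11.6 against 55.8 ± 8.92 CPM (edgeR adjusted p = 0.0841). Fst, in the second only, was also lower (edgeR adjusted p = 0.259), and the rest were higher. Nog, whose protein noggin binds BMPs outside the cell, rose from 3.19 ± 0.627 to 10.5 ± 1.72 CPM (edgeR adjusted p = 0.0156), a call lost without wild-type replicate 1 or 3, and Fstl1, a secreted follistatin-like protein gene, rose from 175.5 ± 35.2 to 607.2 ± 118 CPM (edgeR adjusted p = 0.00458). DESeq2 called 4 inhibitors higher and 1 lower.

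Cofactors of E-proteins included 3 called genes of 12 tested, 1 higher and 2 lower, against 5.59% of all tested genes called. The LIM-only genes Lmo1 and Lmo2, whose proteins join complexes with E-proteins in normal or leukaemic blood cells, changed in opposite directions at low levels: Lmo1 fell from 4.92 ± 1.58 to 0.109 ± 0.150 CPM (edgeR adjusted p = 0.00641) and Lmo2 rose from 0.137 ± 0.122 to 3.38 ± 0.400 CPM (edgeR adjusted p = 0.00694). Hdac5, a histone deacetylase that restrains the Mef2 partners of Myod1, fell from 159.5 ± 14.2 to 70.9 ± 18.7 CPM (edgeR adjusted p = 0.0250), a call lost without wild-type replicate 1 or 2 or Gmppb-KO replicate 1. In the lists of other E-protein partners (2 tested of 34), other basic helix-loop-helix repressors (10 of 10) and zinc finger repressors that bind E-boxes (4 of 6), edgeR called 0 genes. In each of these lists 1 gene had an unadjusted p under 0.05, beside 20.1% of all tested genes. The DESeq2 calls numbered 0, 1 and 1, and edgeR without a filter on low counts called 0, 1 and 2.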

How the data were processed

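Raw read counts per gene and FPKM values were deposited by the authors in 1 table; the counts are whole numbers, 1 column per library, not normalized. FPKM, per the file headers, is the authors' value per gene length; the library size it implies was 0.793 to 1.26 times the total count of named genes, so it is a normalized size. The authors' log2 fold changes and p-values, also deposited, were not used for calls. Tools listed in the submitters' processing notes are HISAT2, featureCounts of Subread, FastQC and DESeq2, with build mm10. Annotation release and strand setting: not given in the sources used here. Deposited gene length, another value of the authors' table, equals the merged GENCODE M21 exon length for the 10 genes.

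Rows without a gene name, 201 in all and 0.0699% to 0.195% of a library's counts, were left out. The main test was edgeR 4.0.16 in R 4.3.3 (TMM, filterByExpr, group as the only term). Alternatives were DESeq2 1.42.0, limma 3.58.1 (voom, and log2(FPKM + 1) or + 0.1), 3 scalings, 2 filters, a replicate block, length-trend offsets and leaving out each library. Library pairs within a group differed by more than counting noise (mean chi-square per gene 25.1 to 170.3). The steps were tested on simulated counts. Genes, lists and tests were chosen with earlier results of these data known. The naming rule covers the 10 genes, the 4 myogenic factors and from each list at most 4 called genes, those of lowest adjusted p. Ckm, Scx, Heyl, Mycl, Grem1, Fst and single cell type markers are named outside it, after their values were seen.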

Additional observations from a re-analysis of the deposited data

How the results depend on the processing

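No alternative called any of the 8 tested genes; over 17 alternatives the lowest adjusted p was 0.0526 for Twist2 (replicate block), 0.0555 for Tcf4 and 0.0632 for Id1. Id1, Id3, Tcf3, Msc and Twist2 kept their sign in all 17. Id2 turned to -0.094 without wild-type replicate 3 and -0.02 without Gmppb-KO replicate 3. Tcf12 turned to -0.093 with the length trend removed and -0.18 without Gmppb-KO replicate 3. Tcf4 turned to 0.20 under library size scaling, which moves the median of all genes by 0.16, and to 0.011, 0.17 and 0.25 without wild-type replicate 1, Gmppb-KO replicate 1 and Gmppb-KO replicate 2. Leaving out 1 library gave -0.094 to 0.26 for Id2, -0.18 to 0.59 for Tcf12 and -0.95 to 0.25 for Tcf4. The cause was not tested.

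Over all genes edgeR called 715 (297 higher, 418 lower), DESeq2 1295 (528 and 767), edgeR without a filter 1419 (639 and 780) and with a replicate block 1618 (673 and 945). Leaving out 1 library gave 331 to 749 (119 to 353 higher, 212 to 458 lower), the lowest without wild-type replicate 1. Whether same-numbered libraries share more than a number is unsettled. Their deviations correlated at -0.18, 0.51 and 0.42 for numbers 1, 2 and 3. Numbers 2 and 3 correlated best with their own number, and number 1 did not. The 19 called genes of the lists stayed between 13 and 27. By list, called BMP receptors numbered 0 to 2 lower and called BMP Smad genes 0 or 1 higher (1 with DESeq2, no filter, the replicate block, the length trend removed and without Gmppb-KO replicate 1). Called inhibitors numbered 1 to 4 higher and 0 or 1 lower, and called cofactors 1 or 2 higher and 1 to 3 lower. The replicate block called 4 inhibitors higher and 1 lower, 1 other basic helix-loop-helix repressor higher and, of the other E-protein partners Scx and Atoh8, 1 lower. Depth limits Id4 and Twist1. With 3 libraries a group, a 2-fold change stayed inside the intervals of Id1, Tcf4, Tcf12 and Twist2.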

Other observations

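The authors' table marks 100 genes as basic helix-loop-helix family, the 10 genes above included. Of 45 tested, edgeR called 0 higher and 4 lower, which is 8.89% beside 5.59% of all tested genes. Besides Myod1 and Myog these were Heyl, a Notch target, which fell from 7.60 ± 4.22 to 0.621 ± 0.105 CPM (edgeR adjusted p = 0.00461), and Mycl, a Myc family gene, which fell from 8.02 ± 3.75 to 1.92 ± 0.193 CPM (edgeR adjusted p = 0.0236); both were named after their values were seen. By mean FPKM among these 45 genes, Id3 ranked 3 in wild-type and 1 in Gmppb-KO libraries, Tcf3 5 and 3, and Msc 12 and 11, while Myod1 went from rank 2 to rank 43. Scx, a tendon factor that also pairs with E-proteins, ranked 1 in wild-type and 2 in Gmppb-KO libraries, at 134.7 ± 20.8 and 77.0 ± 19.3 FPKM, and its lower mean was not called (edgeR adjusted p = 0.129).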
